A study of Homo sapiens with 3 samples.

Results

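The 47 genes described here encode the core proteins of the spliceosomal small nuclear ribonucleoproteins (snRNPs) and the factors that work beside them: Sm and LSm proteins, proteins specific to the U1, U2, U4/U6, U5 and U11/U12 particles, the SF3A and SF3B complexes, the U2AF heterodimer and the pair PRPF19 and CDC5L. They were chosen by symbol, from the known role of each protein. Of the 47, 45 had a row under their own symbol in a table of 17595 genes. LSM8 was read from the row NAA38, which RefSeq lists as another symbol of LSM8; the gene now called NAA38 has a row of its own under its older symbol LSMD1. SNRPN had no row, so 46 members carry values; its expression is not analysed here, and it enters only the medians over whole lists, as 0. All 46 had at least 10 counts over the libraries together, the minimum for testing.

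Introns are removed by the spliceosome, a machine that is built anew on each intron from RNA and protein particles. Each of the U1, U2, U4 and U5 particles holds a small nuclear RNA around which a ring of Sm proteins closes in the cytoplasm, while U6 carries a ring of the related LSm proteins. U1 recognises the 5′ splice site, U2AF and then U2 with its SF3A and SF3B complexes recognise the branch site and the 3′ splice site, and the tri-snRNP of U4/U6 and U5 brings the parts that form the catalytic centre. Every dividing cell needs these particles, and the proteins are counted among the general housekeeping factors.

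The study profiled a single group, HEK293, a long-used line of human embryonic kidney cells, with no treatment named in the labels. Each of 3 libraries started from 1000 lysed cells with spiked control RNA at 20000 molecules per cell, and a share equal to 100 cells was carried into 18 cycles of PCR. A template-switching oligonucleotide marks the 5′ end of each reverse-transcribed RNA, so that counts are of 5′ ends and not of fragments along a transcript; levels are therefore given per RNA end and are not divided by length. Libraries are named 20, 21 and 23 after the index in their column heading, since the columns could not be matched to replicate numbers, and nothing says whether they came from separate cultures. Total counts lay between 1384172 and 1601555, with 3.49% to 3.85% of them from spikes. Levels are counts per 1000000 endogenous counts (CPM), and 1 count equals 0.647 to 0.751 CPM. All 9 genes of a list of HEK293-associated genes averaged at least 10 CPM, from SIX2 at 15.0 CPM to VIM at 340 ± 23.4 CPM (SD, n = 3). The same level was reached by 7850 of all 11424 genes with at least 10 pooled counts. The neurofilament genes NEFM and NEFL, at 35.6 and 33.9 CPM, were placed in that list and not among the neuronal markers. Of 10 neuronal markers 4 had a row, and 0 averaged 10 CPM. Of 14 markers of blood, endothelium, muscle, liver and fibroblasts 5 had a row, and 0 averaged 10 CPM.

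Because the counts are of RNA 5′ ends, the promoter sequence at the start of a few members is shown with them. Whether the counts are of reads or of collapsed molecules is not given. The 8 genes below each have a single start in RefSeq (build GRCh38.p14, not the authors' build), and each enters a ratio to another member further on. They are SNRPB and SNRPF of the Sm ring, the paralogs SNRPA and SNRPB2, the lowest and highest SF3A subunits and both U2AF subunits. Each line runs 5′ to 3′ on the strand of the gene, from 100 bases before the start, with the last 20 bases transcribed. Capitals mark CCGGAAG (the core of ETS factor sites), GGGCGG (SP1) and CCAAT (NF-Y) on either strand.
SNRPB: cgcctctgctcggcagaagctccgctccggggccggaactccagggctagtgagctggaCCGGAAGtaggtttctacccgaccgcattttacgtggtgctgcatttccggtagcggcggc
SNRPF: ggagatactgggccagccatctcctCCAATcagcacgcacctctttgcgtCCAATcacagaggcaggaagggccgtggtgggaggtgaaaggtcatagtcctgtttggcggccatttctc
SNRPA: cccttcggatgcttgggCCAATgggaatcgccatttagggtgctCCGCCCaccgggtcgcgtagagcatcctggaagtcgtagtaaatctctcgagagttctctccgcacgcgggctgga
SNRPB2: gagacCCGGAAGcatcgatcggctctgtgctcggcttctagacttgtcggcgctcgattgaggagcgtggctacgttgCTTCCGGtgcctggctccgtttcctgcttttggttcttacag
SF3A2: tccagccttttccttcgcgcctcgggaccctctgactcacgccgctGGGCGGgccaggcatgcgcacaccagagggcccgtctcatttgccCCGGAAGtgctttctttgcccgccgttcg
SF3A3: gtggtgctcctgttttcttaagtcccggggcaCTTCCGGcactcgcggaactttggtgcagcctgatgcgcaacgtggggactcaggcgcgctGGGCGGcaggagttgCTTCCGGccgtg
U2AF1: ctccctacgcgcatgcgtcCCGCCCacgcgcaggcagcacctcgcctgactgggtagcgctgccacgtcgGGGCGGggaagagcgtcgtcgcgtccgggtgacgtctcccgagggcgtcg
U2AF2: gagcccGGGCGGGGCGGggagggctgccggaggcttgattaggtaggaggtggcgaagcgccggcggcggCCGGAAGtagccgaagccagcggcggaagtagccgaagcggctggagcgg
The windows stand at chr20:2470770-2470889 (minus strand) for SNRPB, chr12:95858852-95858971 (plus) for SNRPF, chr19:40751103-40751222 (plus) for SNRPA, chr20:16729926-16730045 (plus) for SNRPB2, chr19:2236724-2236843 (plus) for SF3A2, chr1:37990003-37990122 (minus) for SF3A3, chr21:43107551-43107670 (minus) for U2AF1 and chr19:55654935-55655054 (plus) for U2AF2.

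RefSeq windows of 300 bases, 250 before a start and 50 from it, were found for 40 of the 46 members with a row. CCGGAAG or its complement stood in a window of 18 of these 40 genes (45%), against 24.0% of 8282 table genes with at least 10 pooled counts and 10.3% of all 35116 windows. The 18 include 4 Sm genes (SNRPB, SNRPD2, SNRPE and SNRPG), 3 SF3A genes and 2 SF3B genes. GGGCGG was found in 27 of the 40 members (67.5%), against 79.8% of the table genes, and CCAAT in 17 (42.5%), against 44.5%. TATAAA was found only for SNRPC among the 40 members (2.5%), against 7.59% of the table genes. Both strands were searched, GGGCGG can overlap itself as in U2AF2, and a match is a match of letters only. Median GC content was 60.7% over the members' windows and 65.3% over those of the table genes.

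As a set the members were abundant. They took 1.56%, 1.55% and 1.53% of endogenous counts in libraries 20, 21 and 23, a mean of 1.55% ± 0.012 (SD, n = 3). Their median level, with SNRPN at 0, was 179, 158 and 175 CPM, against 19.0, 18.8 and 20.7 CPM for the median of all 11424 genes with at least 10 pooled counts. With SNRPN at 0 that median is the level of a single gene, LSM8 in libraries 20 and 21 and PRPF8 in library 23. Over the 46 members with a row it was 178 ± 2.27 CPM (SD, n = 3). All 46 stood above the median of the genes with at least 10 pooled counts. Of the 47 members 34 averaged at least 100 CPM (72.3%), where 15.3% of the genes with 10 pooled counts did, and 9 averaged at least 500 CPM, where 2.91% did. Levels spread 61.7-fold, from SNRPD2 at 1353 ± 6.89 CPM to SNRNP35 at 21.9 ± 3.43 CPM. By the ratio to the spikes, the members together came to 8100.1 ± 368 RNA molecules per cell (SD, n = 3), a value that rests on spikes and cellular RNA being captured alike, which was not tested.

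**Figure D1:**
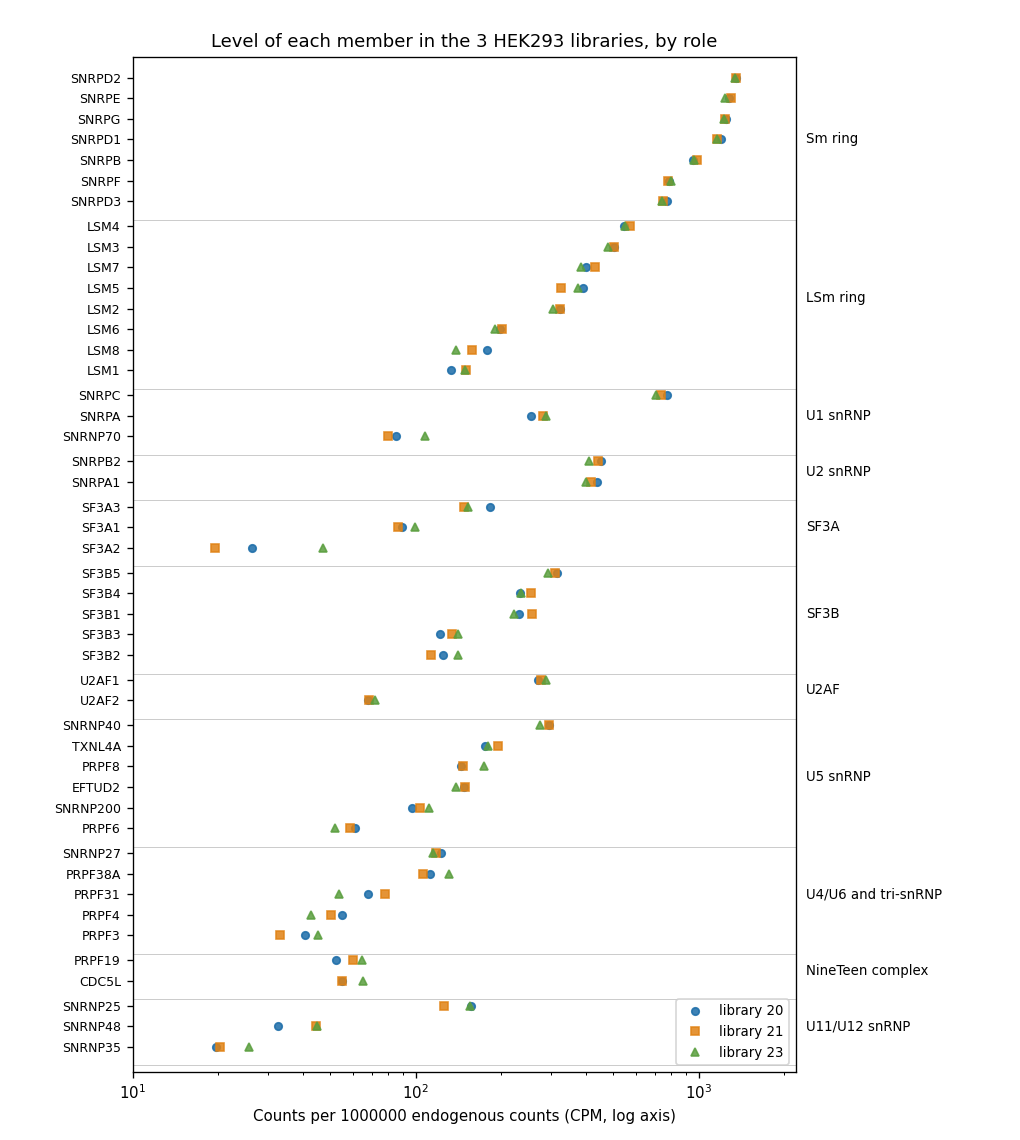
CPM of each of the 46 members with a row, on a log axis, by role, with 1 symbol for each of the 3 libraries. The 7 Sm genes stand together at the top between 745 and 1359 CPM, most symbols of a gene lie on each other, and SF3A2 is the most spread, from 19.5 to 47.2 CPM.

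The Sm proteins form the ring that all these particles but U6 share, and their genes were the most abundant members. SNRPD2, which encodes SmD2, had 1359, 1355 and 1346 CPM in libraries 20, 21 and 23. SNRPE (SmE) followed with 1280.01, 1299.9 and 1240.3 CPM and SNRPG (SmG) with 1249.5, 1239.8 and 1233 CPM. SNRPD2 was above SNRPE in each library with no overlap of their ranges, while SNRPE and SNRPG overlapped. SNRPD1 (SmD1) had 1197, 1159 and 1165 CPM, and SNRPB, which encodes the alternatively spliced proteins SmB and SmB′, had 957, 989.6 and 964 CPM. SNRPF (SmF) had 784, 778 and 797 CPM and SNRPD3 (SmD3) 776, 751 and 745 CPM. From SNRPG down to SNRPD3 no ranges of neighbours overlapped. These 7 genes took 0.756% ± 0.0058 of endogenous counts, 48.8% of the members' summed level, and lay within 1.79-fold of each other, at 396 to 708 molecules per cell.

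In the assembled ring each Sm protein is present once, and they come together as the sub-complexes D1 with D2, B with D3, and E, F and G. Within the sub-complexes the genes were not at equal levels. SNRPD1 over SNRPD2 was a log2 ratio of -0.21 ± 0.021 (SD, n = 3 libraries), SNRPB over SNRPD3 0.36 ± 0.049, SNRPE over SNRPF 0.70 ± 0.053 and SNRPG over SNRPF 0.66 ± 0.025. Each had the same sign in 3 of 3 libraries and was larger than its SD, and each gave p = 0.25 in the 2-sided exact sign-flip permutation test, which is the smallest p that 3 libraries allow. A count ratio of different RNAs also carries any difference in their capture, whose part was not tested. Rows of processed pseudogenes were small beside their parents: SNRPGP10 stood at 4.47% and SNRPGP2 at 3.66% of the level of SNRPG, and the other 5 such rows, of SNRPE, SNRPF, SNRPG and LSM6, at 0.582% of their parent or less. How reads were divided among such copies is not known here.

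LSm proteins resemble Sm proteins and form a pair of rings. LSm2 to LSm8 bind the 3′ end of U6 in the nucleus, and LSm1 in place of LSm8 makes the cytoplasmic ring that promotes decapping of mRNA. The 8 genes took 0.264% ± 0.0058 of endogenous counts, with a median of 341 ± 16.2 CPM against 1174 ± 20.4 CPM for the 7 Sm genes with a row (1072 ± 6.69 CPM with SNRPN at 0). LSM4 led with 543, 573 and 547 CPM and LSM3 followed with 504, 501 and 477 CPM. Each LSm gene was below each Sm gene in all libraries. The common subunits LSM7, LSM5, LSM2 and LSM6 averaged 405, 364, 318 and 197 CPM.

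The lowest of the 8 were the subunits that tell the rings apart. LSM8 had 179, 158 and 139 CPM and LSM1 133, 151 and 149 CPM in libraries 20, 21 and 23. LSM8 was higher in libraries 20 and 21 and LSM1 in library 23, so their ranges overlapped. Their log2 ratio, LSM8 over LSM1, was 0.13 ± 0.27 (exact sign-flip permutation p = 0.75, 2 of 3 libraries positive).

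Of the proteins specific to U1, SNRPC (U1-C), which steadies the pairing with the 5′ splice site, was the most abundant, with 773, 734 and 705 CPM. SNRPA (U1-A), which binds a stem-loop of U1 RNA, had 256, 281 and 290 CPM. SNRNP70, the U1-70K protein that binds the first stem-loop, had 85.4, 79.6 and 108 CPM. No range overlapped another, and the order was the same in each library, with SNRPC over SNRPA at a log2 ratio of 1.42 ± 0.16 and SNRNP70 over SNRPA at -1.61 ± 0.20 (exact sign-flip permutation p = 0.25 for each). These 3 proteins sit in the same particle, and their RNA levels spread 8.10-fold.

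U2 carries SNRPA1 (U2-A′) and SNRPB2 (U2-B″), which bind its RNA as partners. SNRPA1 had 438, 418 and 400.5 CPM and SNRPB2 452, 439.6 and 411 CPM in libraries 20, 21 and 23. SNRPB2 was the higher in each library, by a margin much smaller than the shift between libraries (SNRPA1 over SNRPB2, log2 ratio -0.05 ± 0.019). SNRPA and SNRPB2 are paralogs whose promoters are shown above. SNRPA over SNRPB2 was -0.66 ± 0.16, lower in 3 of 3 libraries (exact sign-flip permutation p = 0.25).

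SF3A and SF3B are the complexes that complete U2 and hold the branch site. SF3B5, a small subunit, led the 5 SF3B members with 315, 310 and 292 CPM, and SF3B4, an RNA-binding subunit, had 233, 255 and 236 CPM. SF3B1, the large repeat protein that clamps the branch helix and is a recurrent site of mutation in blood cancers, had 232, 257 and 223 CPM. SF3B3, which holds SF3B1, averaged 133 ± 9.98 CPM and SF3B2, the partner of SF3B4, 126 ± 13.9 CPM. SF3B4 over SF3B2 was a log2 ratio of 0.94 ± 0.22, SF3B5 over SF3B1 0.37 ± 0.090 and SF3B3 over SF3B1 -0.84 ± 0.16, each with the same sign in 3 of 3 libraries (exact sign-flip permutation p = 0.25 for each).

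The SF3A subunits were less even than the 5 SF3B members, with a 5.197-fold spread against 2.42-fold. This does not extend to the whole SF3B complex. Its subunit SF3B6, which is not a member, averaged 858 ± 3.50 CPM, against 126 CPM for SF3B2. SF3A2 had 26.4, 19.5 and 47.2 CPM, from 39, 26 and 73 counts in libraries 20, 21 and 23. SF3A3 had 183, 148 and 153 CPM and SF3A1 89.4, 86.4 and 99.6 CPM. SF3A2 was lowest of the 3 in each library, at a log2 ratio to SF3A1 of -1.65 ± 0.53, whereas SF3A3 over SF3A1 was 0.81 ± 0.21 (exact sign-flip permutation p = 0.25 for each). The 3 SF3A proteins form a single heterotrimer, and the median of the SF3A list was 91.8 ± 6.93 CPM against 237 ± 17.0 CPM for the 5 SF3B members.

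U2AF reads the 3′ end of the intron: U2AF2, the large subunit, binds the polypyrimidine tract and U2AF1, the small subunit, the terminal AG. U2AF1 had 270, 278 and 290 CPM and U2AF2 67.8, 68.4 and 71.8 CPM in libraries 20, 21 and 23. Both were highest in library 23, and their log2 ratio of 2.00 ± 0.015, a 4.01-fold excess of U2AF1, had the smallest SD of the 21 ratios computed. Counting error alone gives coefficients of variation of 4.97% for U2AF1 and 9.97% for U2AF2, above the 3.63% and 3.15% seen. An SD this small over 3 libraries is itself imprecise and is not a result about the pair.

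**Figure D2:**
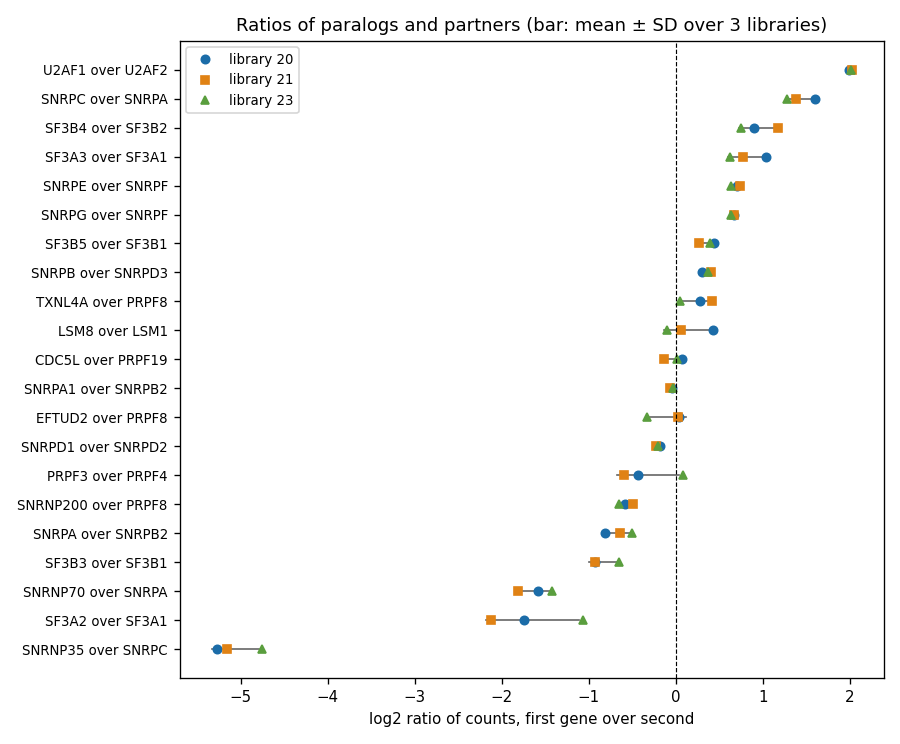
Per-library log2 ratios of counts for 21 pairs of paralogs or partners, first gene over second, with a bar for the mean ± SD over the 3 libraries. U2AF1 over U2AF2 has the smallest SD (2.00 ± 0.015) and SF3A2 over SF3A1 the largest (-1.65 ± 0.53), though an SD over 3 libraries is itself imprecise. LSM8 over LSM1, EFTUD2 over PRPF8, PRPF3 over PRPF4 and CDC5L over PRPF19 have libraries on both sides of 0.

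The U5 proteins form the heart of the active spliceosome. EFTUD2, the GTPase that regulates remodelling, had 148, 149.5 and 139 CPM, and SNRNP200, the helicase (Brr2) that unwinds U4 from U6, had 96.9, 104 and 111 CPM. PRPF8, the scaffold of the catalytic centre, had 145, 147 and 175 CPM. EFTUD2 and PRPF8 overlapped, with a log2 ratio of EFTUD2 over PRPF8 of -0.09 ± 0.21 and 2 of 3 libraries positive, while SNRNP200 was below PRPF8 in 3 of 3 libraries at -0.58 ± 0.076 (exact sign-flip permutation p = 1 and 0.25). SNRNP40, a WD-repeat protein of U5, was the most abundant of the 6, with 296, 295 and 275 CPM, followed by TXNL4A (Dim1), a thioredoxin-like protein, at 184 ± 10.1 CPM. PRPF6, which bridges U5 to U4/U6, was lowest with 61.0, 58.6 and 51.8 CPM.

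Genes of U4/U6 and of the tri-snRNP were among the lowest members. SNRNP27, a protein of the tri-snRNP, and PRPF38A, which joins at spliceosome activation, averaged 119 ± 3.78 and 116 ± 12.8 CPM. PRPF31, which binds U4 RNA and is a disease gene of retinitis pigmentosa, had 67.8, 78.1 and 53.7 CPM. The partners PRPF3 and PRPF4 had 40.7, 33.1 and 45.3 CPM and 54.9, 50.3 and 42.7 CPM. PRPF4 was the higher in libraries 20 and 21 and PRPF3 in library 23, for a log2 ratio of PRPF3 over PRPF4 of -0.32 ± 0.36 (exact sign-flip permutation p = 0.5).

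The PRPF19 complex stabilises the activated spliceosome. Its Myb-like scaffold CDC5L had 54.9, 54.9 and 65.3 CPM and its ubiquitin ligase PRPF19 52.2, 60.1 and 64.7 CPM. They could not be set in order, at a log2 ratio of CDC5L over PRPF19 of -0.01 ± 0.10 (exact sign-flip permutation p = 1).

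The minor spliceosome removes a rare class of introns with U11 and U12 in place of U1 and U2, and its members were at the bottom of the order with an exception. SNRNP25 had 157, 126 and 156 CPM, SNRNP48 had 32.5, 44.3 and 44.6 CPM, and SNRNP35 had 19.7, 20.3 and 25.9 CPM. SNRNP35, which takes in U11 a place like that of U1-70K in U1, was the least counted of all 46 members, with 96 pooled counts and 11.5 ± 2.39 molecules per cell. Against SNRNP70, a ratio added after the values were seen, SNRNP35 was lower in 3 of 3 libraries, at a log2 ratio of -2.03 ± 0.075, a 4.10-fold excess of SNRNP70 (exact sign-flip permutation p = 0.25). Against SNRPC, the most abundant U1 member, the log2 ratio was -5.06 ± 0.27. The row of SNRNP25 needs care: in GENCODE v29 it overlaps POLR3K on the opposite strand, which had 547 ± 20.3 CPM, and whether counting used strand is not known here.

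Between neighbours in the full order of 46 members, the ranges over the 3 libraries overlapped for 33 of 45 neighbouring pairs. The 12 clear steps were mostly at the top, where counts were high: 9 of them lay among the 15 most abundant members. Below SNRPA, the order of single genes was resolved only between SF3B1 and LSM6 and between SNRNP70 and U2AF2, apart from the step between SNRPA and SF3B4 itself. Of the 22 pairs of paralogs and partners listed, 21 had values, and 17 had the same sign in all 3 libraries.

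Short proteins had the more abundant RNAs among the members. Coding length was taken from the principal GENCODE v29 transcript. The 17 members with fewer than 150 codons had a median of 405 CPM, the 16 with at least 150 and under 500 codons 180.1 CPM, and the 13 with 500 or more codons 104 CPM. The same 3 classes of all protein-coding genes with at least 10 pooled counts had medians of 121, 29.3 and 14.8 CPM, for 722, 5040 and 4729 genes. The members' median stood above that of all genes in each class, and 1 member, SNRNP35 at 21.9 CPM, was below the median of its class. Over the 46 members Spearman's rho of mean CPM and coding length was -0.66, and over the 10491 protein-coding genes it was -0.34; with the length of the transcript it was -0.47 and -0.30. These are descriptions across genes that share the same 3 libraries. Most of the 17 members under 150 codons are Sm or LSm genes. The others, SF3B5, TXNL4A and SNRNP25, averaged 306, 184 and 146 CPM. Length apart from membership of a ring was not tested. Of the 13 members with 500 or more codons, SF3B1 was highest at 237 CPM and PRPF3 lowest at 39.7 CPM, and 5 (PRPF3, PRPF4, PRPF6, CDC5L and PRPF19) averaged under 60 CPM. The levels of short and long RNAs and their capture at the 5′ end cannot be told apart here.

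**Figure D3:**
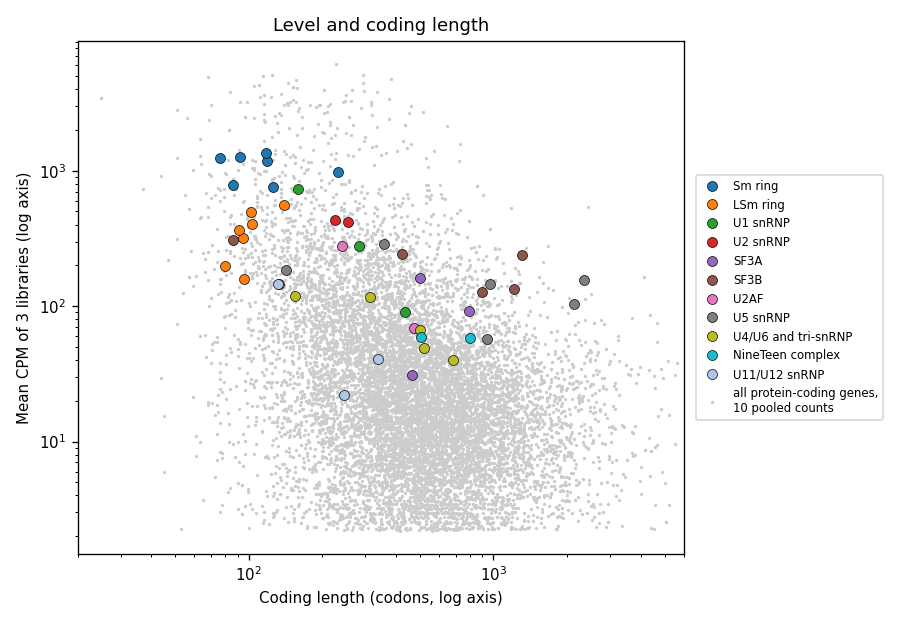
Mean CPM of the 3 libraries against coding length in codons, both on log axes, for the 46 members by role, over 10491 protein-coding genes in grey. Sm genes lie at the upper left, and members with 500 or more codons, with a median of 104 CPM, lie above most grey points of their length.

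Libraries of the same cells differed in a single member. A 2-sided exact binomial test of each gene and pair of libraries, adjusted by the Benjamini-Hochberg method over all 11424 genes and 3 pairs, called 64 genes in at least 1 pair, a background of 0.56%. Among the 46 members it called SF3A2 only, which had 19.5 CPM in library 21 and 47.2 CPM in library 23 (exact binomial adjusted p = 0.031). That pair called 0.289% of all genes. No member was called between libraries 20 and 21, where 0.105% of genes were, or between 20 and 23, where 0.385% were. The p covers counting error only and compares these libraries, not conditions. SF3A2 overlaps PLEKHJ1 on the opposite strand in GENCODE v29; PLEKHJ1 had 80.0, 90.2 and 75.1 CPM in libraries 20, 21 and 23, lowest in the library where SF3A2 was highest, with no call (exact binomial adjusted p = 0.892). Its part in the SF3A2 counts was not tested. Without adjustment, 11 of 46 members (23.9%) and 1813 of 11424 genes (15.9%) had a p below 0.05 in some pair. By pair these were 3 members (6.52%, against 5.00% of genes) between libraries 20 and 21, 5 (10.9%, against 8.53%) between 20 and 23, and 7 (15.2%, against 7.29%) between 21 and 23. A chi-square test over the 3 libraries also called 1 member and 83 genes.

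The coefficient of variation (CV) of CPM over the 3 libraries had a median of 6.13% over the members, with 31 of 46 below 10%. It was smallest for SNRPD2 at 0.509%, where counting error alone gives 2.26%, and 46.4% for SF3A2, where it gives 14.7%. With 3 libraries such a CV is itself imprecise. The next widest were PRPF31 at 18.4%, SNRNP48 at 17.1% and SNRNP70 at 16.5%, for counting values of 10.2%, 13.1% and 8.67%. The median chi-square per degree of freedom was 0.92 for the members and 0.83 for all genes tested, many of which had far fewer counts. Both were above the 0.69 that counting error alone gives with 2 degrees of freedom. Library 20 held the highest value of 18 members, library 21 of 11 and library 23 of 17; these are 39.1%, 23.9% and 37.0% of the members, against 32.8%, 28.8% and 38.4% of 5204 genes with at least 100 pooled counts.

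**Figure D4:**
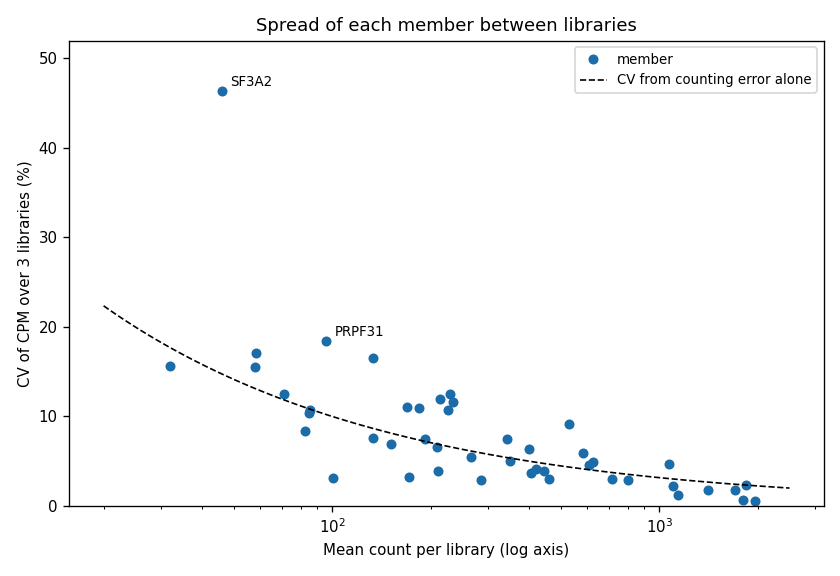
CV of CPM over the 3 libraries (%) against the mean count per library on a log axis, 1 point for each of the 46 members, with a dashed line for the CV that counting error alone gives. Points lie on both sides of the line, and SF3A2 stands apart at 46.4%.

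The members were set beside other lists of the splicing pathway. The members had a median of 170.5 ± 11.2 CPM, against 88.3 ± 1.74 CPM for 32 other snRNP, U2-associated and LSm-domain proteins. LUC7L2 had no row. LSM10, LSM11, LSM12, LSM14A and LSM14B were in this list but are not proteins of the spliceosomal snRNPs. The list was led by SF3B6, under its older name SF3B14, at 858 ± 3.50 CPM. SF3B6 is the SF3B subunit that touches the branch-site adenosine. NHP2L1, which binds the U4 kink-turn, followed at 768 ± 53.9 CPM. Next were U2SURP at 232 ± 30.5 CPM and PHF5A, another SF3B subunit, at 214 ± 18.0 CPM. SF3B6 thus stood higher than any of the 5 SF3B members. A list of 33 other proteins, of the PRPF19 complex, the catalytic steps and the steps before them, had a median of 52.4 ± 5.18 CPM. Its highest were the ubiquitin-like UBL5 at 662 ± 20.5 CPM, CWC15 at 262 ± 10.4 CPM, BCAS2 at 237 ± 9.16 CPM and BUD31 at 224 ± 8.83 CPM. None of the genes in these 2 lists differed between libraries past the threshold (exact binomial adjusted p of at least 0.1).

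Sm proteins are loaded onto snRNA by the SMN complex after methylation by PRMT5. The 19 genes of this assembly line had a median of 64.5 ± 1.28 CPM, with STRAP at 359 ± 3.73 CPM, CLNS1A, the chaperone pICln, at 297 ± 32.0 CPM, WDR77 at 224 ± 19.5 CPM and PRMT5 itself at 211 ± 22.2 CPM. SMN1 and SMN2 had 7.31 ± 1.55 and 6.70 ± 2.29 CPM, but they are near-identical copies, and how reads that fit both were counted is not known here. The Sm genes, the cargo of this line, had 7555 ± 58.4 CPM in sum and the assembly genes 1997 ± 34.2 CPM.

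Regulators of splicing choice, the hnRNP and SR proteins, were the closest in level. The members had a median of 179, 158 and 175 CPM in libraries 20, 21 and 23, against 215, 212 and 219 CPM for the 39 regulators, of which SRSF8 and SRSF10 had no row. The members' median was lower in 3 of 3 libraries, by -44.9 ± 9.10 CPM (SD, n = 3). That is a description only, as both lists were chosen with earlier results known, and genes without a row entered both medians as 0. In sum the members took 1.55% ± 0.012 of counts and the regulators 1.15% ± 0.041. HNRNPA1 at 1492 ± 59.6 CPM was above SNRPD2, and SRSF3 at 1073 ± 47.4 CPM stood between SNRPD1 and SNRPB. Of the 37 regulators, PCBP2 and HNRNPA2B1 differed between libraries (exact binomial adjusted p = 0.000397 and 0.011); PCBP2 is named after its values were seen.

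**Figure D5:**
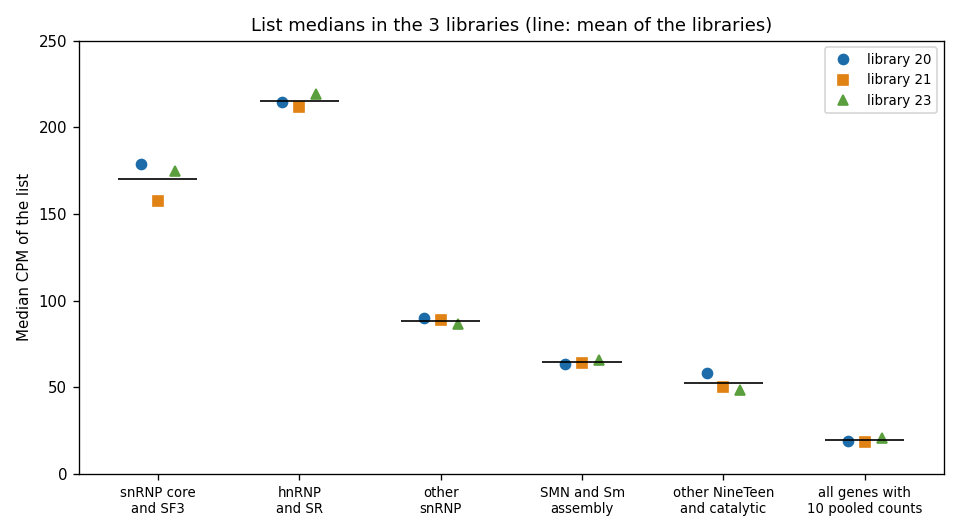
Median CPM of each gene list in each of the 3 libraries, with a line for their mean; members without a row count as 0. The snRNP core and SF3 members lie between 158 and 179 CPM, below the hnRNP and SR proteins at 212 to 219 CPM and above the other splicing lists and all genes with 10 pooled counts at 18.8 to 20.7 CPM.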

How the data were processed

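For 3 HEK293 libraries the deposited values are raw counts, by gene and by spike, without normalization. The tools named in the submitters' processing notes are STAR 2.4.0a and cutadapt 1.2.1, and the build is hg19 (GRCh37); the counting tool, annotation, use of strand and collapsing of molecular identifiers remain not given in the sources used here. The members and lists were chosen with earlier results of these data known. CPM was computed from endogenous counts, with 80 spikes set aside. Libraries were compared per gene by a 2-sided exact binomial test where 10 or more counts were pooled, adjusted by Benjamini-Hochberg at 0.05; with 1 group and single libraries, edgeR's quasi-likelihood test could not be used. Ratios used a pseudocount of 0.5 and the exact sign-flip permutation test. The p-values speak of these samples alone, whose spread may be technical. Median-of-ratios and TMM scaling came from DESeq2 1.42.0 and edgeR 4.0.16; tests ran in Python 3.11.15 with scipy 1.17.1 and were checked on simulated counts. Coding lengths and overlaps came from GENCODE v29 (GRCh38), in which 14878 of 17595 symbols were matched. Named genes were the 2 highest and the lowest of each role, genes of the pairs, the member that differed, and up to 4 of each list; other members were added so that each is accounted for, and the 8 promoters were chosen after values were seen.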

Additional observations from a re-analysis of the deposited data

How the results depend on the processing

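No paired analysis was possible because the study has a single group and its columns carry no replicate number. The count of members that differed between libraries was 1, and stayed 1 with TMM or median-of-ratios scaling, other minimum counts and the chi-square test. It was 2 when scaled by spike totals, where LSM5 joined SF3A2 (exact binomial adjusted p = 0.029 and 0.0022), and 0 to 1 when a library was left out, being 0 without library 21 or without library 23. SF3A2 had been called only between libraries 21 and 23, so leaving out either removed the pair behind the call. Over all genes the count was 64, against 250 of 11424 with spike totals, 114 with median-of-ratios scaling, 42 without library 20, 59 without library 21 and 8 without library 23. The members' share of 1.55% was 1.49% with spikes in the base, 1.41% without SNRPD2 and 1.53% without the row taken for LSM8, a check added after seeing the data. Spearman's rho of level and coding length was -0.67 without the 2 longest proteins, and Pearson's r on log2 values was -0.59. Molecules per cell came to 10139.8 without the counts of the most counted spike, against 8100.1. The total of spike molecules per cell was kept, so the value had to rise, and the estimate was not tested by it. The members' median of 170 CPM stayed within 166 to 178 CPM under each alternative. Of 105 recomputed gene ratios 102 kept their sign; the reversals came with a library left out. LSM8 over LSM1 then ranged from -0.017 (without library 20) to 0.24, EFTUD2 over PRPF8 from -0.15 to 0.031 (without library 23) and CDC5L over PRPF19 from -0.058 to 0.043 (without library 21). At these depths genes below about 100 counts have counting errors above 10%.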

Other observations

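In GENCODE v29, 15 of the 46 members overlap a gene with a row on the opposite strand and 4 overlap one on the same strand. A divergent partner starting within 1000 bases was present for 5 of 46 members (10.9%), against 1139 of 10491 protein-coding genes with at least 10 pooled counts (10.9%).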
